A study of Capra hircus with 12 samples.

Results

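The miR-193 and miR-365 family was represented by 4 of the 500 miRNA rows in the count table of goat longissimus dorsi, the long muscle of the back. Members were taken by name, as rows called chi-miR-193a, chi-miR-193b or chi-miR-365 with any arm, and these were chi-miR-193b-3p, chi-miR-193b-5p, chi-miR-193a and chi-miR-365-3p. The family was chosen by a measured value, the difference of chi-miR-193b-3p between ages in both breeds, so every age difference of a member is given below as a description and carries no test. All 4 members had at least 10 counts in each of the 12 libraries, and 331 of the 500 rows reached 10 counts in at least 3 libraries.

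Small RNA was sequenced from rams of the Longlin breed, a native Chinese goat, and the Nubian breed, an introduced one. Each breed had 3 animals with the 1-Month label and 3 with the 10-Month label, all fasted before slaughter, with no treatment and no genetic modification named. Libraries held 7002417 to 11350546 counts (median 9184753). Values were given as TPM, which in these files is the library's counts scaled to a common total with no correction for length, or as CPM after TMM scaling, which adjusts the library totals so that most miRNAs do not differ. TMM was fitted anew to the libraries of each comparison, so the CPM of a library differs between comparisons.

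The age names need care. The libraries are called here by the labels of the count table, but the comparison tables deposited by the authors carried their means under the opposite age: the mean they named ten-month equalled the mean of the libraries labelled 1-Month for 500 of 500 miRNAs in each breed, within a relative tolerance of 0.001. For chi-miR-193b-3p in Longlin goats the authors' mean normalized count was 6026 under the ten-month name and 1919 under the one-month name. The files do not show which naming holds, so the direction of every age difference below is that of the count table, and a breed difference at 1 age label could belong to the other age.

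The labels also disagree on the tissue, since the sample labels name longissimus dorsi muscle and the extraction text speaks of fat. The 8 rows of skeletal muscle miRNAs (miR-1, miR-133a, miR-133b, miR-206, miR-208b and miR-499) held 39.4% to 71.7% of the counts of a library (median 63.2%), and none of these rows was at 0. The list for fat named the family members too, and they were left out of its sum. Its other 4 rows (miR-182, miR-196a and both arms of miR-455) summed to 20.3 to 121 TPM, and miR-122, the defining miRNA of liver, had 0.379 to 3.21 TPM. How much fat the samples held was not tested.

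A mature miRNA guides a silencing complex to partly complementary sites in messenger RNAs, mostly through the bases near its 5′ end, and so lowers the output of its targets. In mammals the miR-193b gene lies beside a miR-365 gene, often with a common transcript, while miR-193a is a close relative of miR-193b encoded elsewhere. Which gene the chi-miR-365-3p counts came from was not tested. The cluster is known from brown fat, where it was described as favouring fat over muscle differentiation in cultured precursors, and from tumours, where miR-193 restrains growth genes such as CCND1 and PLAU. The arm named 3p is the main product of the miR-193b hairpin and the 5p arm is its less abundant partner.

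The 4 rows spanned a wide range of levels. chi-miR-193b-3p ranked 53rd by mean TPM among the 500 miRNAs with a mean of 399.5, and chi-miR-193a ranked 55th with 391.7. chi-miR-365-3p ranked 90th with a mean of 150 TPM (1 SD within groups 24.7 to 138.2), and chi-miR-193b-5p ranked 158th with 22.4 TPM. Per library, chi-miR-193b-3p counts exceeded chi-miR-193b-5p counts by 8.42 to 38.8 times and chi-miR-365-3p counts by 1.45 to 5.71 times, so the order of the 3 rows was the same in each of the 12 libraries.

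The rows chi-miR-193a and chi-miR-193b-3p were close to copies of each other. In Longlin goats with the 1-Month label chi-miR-193a had 5290, 4113 and 3299 counts and chi-miR-193b-3p had 5348, 4159 and 3344. At the Longlin 10-Month label the counts were 3369, 2976 and 1911 for chi-miR-193a against 3435, 3046 and 1978. In Nubian goats they were 6891, 4410 and 4520 against 7046, 4465 and 4597 at the 1-Month label, and 2935, 1344 and 2218 against 3050, 1426 and 2262 at the 10-Month label. chi-miR-193b-3p was thus the higher in every library, by at least 44 counts.

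Among the 54615 pairs that 331 miRNAs form, this was the single pair whose smaller count stayed at 90% or more of the larger in all 12 libraries, with a lowest value of 94.2%. The next pair, chi-miR-194 with chi-miR-30d-3p, reached 75.0%. Reads that fit both rows could have been counted in both, and how such reads were treated is not given in the sources used here. The 2 rows are therefore not taken as independent measurements here, and the share of miR-193a and miR-193b in them is uncertain. The net excess of chi-miR-193b-3p over chi-miR-193a was 1.08% to 1.35% of the chi-miR-193b-3p count at the Longlin 1-Month label, 1.92% to 3.39% at the Longlin 10-Month label, 1.23% to 2.2% at the Nubian 1-Month label and 1.95% to 5.75% at the Nubian 10-Month label.

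**Figure D1:**
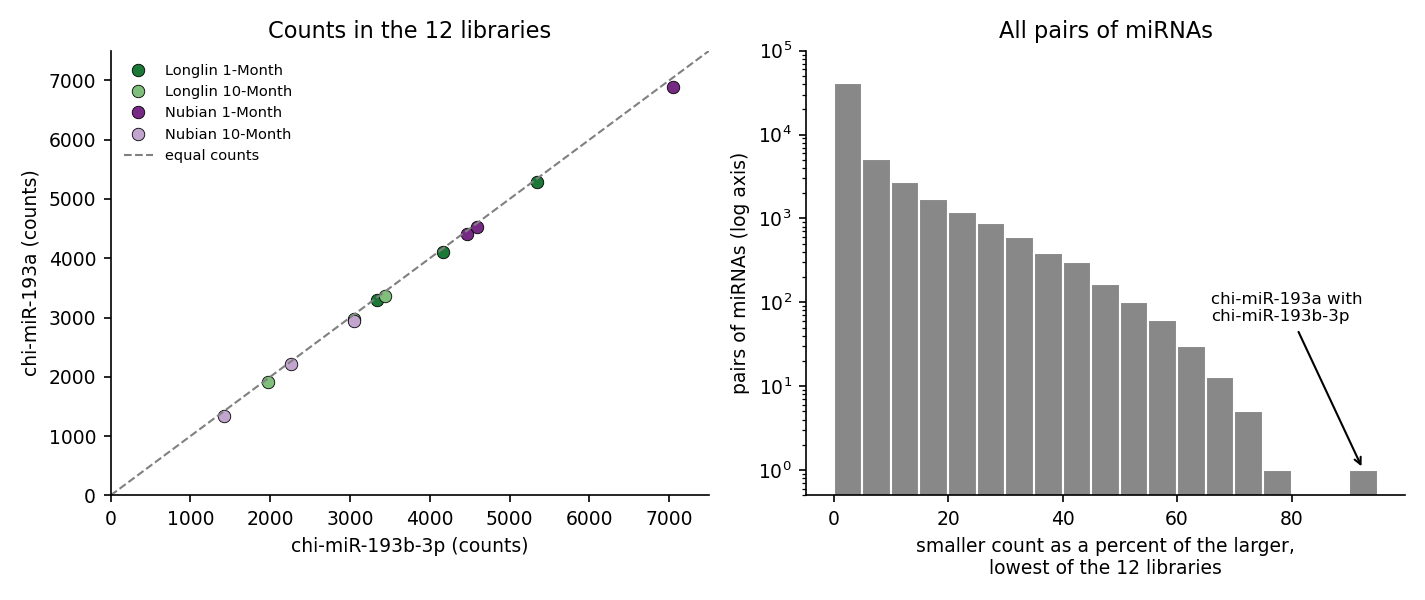
Left, counts of chi-miR-193a against chi-miR-193b-3p in the 12 libraries (points, coloured by group) with the line of equal counts. Right, for all 54615 pairs of miRNAs, the smaller count as a percent of the larger in the library where it was lowest (number of pairs on a log axis); the pair of these rows stands alone at 94.2%.

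RefSeq (assembly ARS1.2) lists MIR193A, 89 bp long, on chromosome 25 from 13114167 to 13114255, in no other gene, with the coding gene MKL2 53498 bp before it and PARN 112264 bp after it. It lists MIR365, 111 bp long, on chromosome 19 from 18118040 to 18118150, also in no other gene, between COPRS (204045 bp before) and LOC108638254 (11372 bp after). MIR193B is named only. The listed genes thus lie on different chromosomes. With no position for MIR193B, these entries do not show whether a miR-193 gene and a miR-365 gene are neighbours in the goat.

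In Longlin goats each member was lower at the 10-Month label than at the 1-Month label. chi-miR-193b-3p had 596, 510 and 478 TPM at the 1-Month label and 314, 278 and 244 TPM at the 10-Month label. chi-miR-365-3p had 187, 167 and 218 TPM against 97.8, 48.7 and 68.7 TPM. chi-miR-193b-5p had 23.2, 23.2 and 32.1 TPM against 19.4, 7.12 and 12.5 TPM. The groups did not overlap for any of the 4 rows on the TPM scale or after TMM scaling. With TMM scaling the log2 fold change was −1.73 (SE 0.19) for chi-miR-193b-3p, −1.75 (SE 0.19) for chi-miR-193a, −1.85 (SE 0.36) for chi-miR-193b-5p and −2.24 (SE 0.28) for chi-miR-365-3p. chi-miR-365-3p thus had 4.71 times less at the 10-Month label and chi-miR-193b-3p 3.31 times less.

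In Nubian goats the levels were lower at the 10-Month label too, with a wider spread. chi-miR-193b-3p had 806, 424 and 436 TPM at the 1-Month label and 269, 152 and 288 TPM at the 10-Month label, with no overlap. chi-miR-365-3p had 375, 111 and 172 TPM against 164, 105 and 85.3 TPM, so that the highest 10-Month library lay above the lowest 1-Month library. chi-miR-193b-5p had 47.4, 21.8 and 34.3 TPM against 31.9, 7.87 and 7.64 TPM, and again the groups overlapped through the first 10-Month library. The first Nubian 1-Month library held the highest TPM of all 12 for each of the 4 rows.

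With TMM scaling over the 6 Nubian libraries the log2 fold change was −1.29 (SE 0.31) for chi-miR-193b-3p, −1.31 (SE 0.32) for chi-miR-193a, −1.37 (SE 0.53) for chi-miR-193b-5p and −0.95 (SE 0.35) for chi-miR-365-3p. On this scale none of the 4 rows overlapped between labels, but for the last 2 the groups nearly touched: chi-miR-365-3p reached 123 CPM at the 10-Month label and began at 124 CPM at the 1-Month label, and chi-miR-193b-5p reached 23.98 and began at 24.3 CPM.

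**Figure D2:**
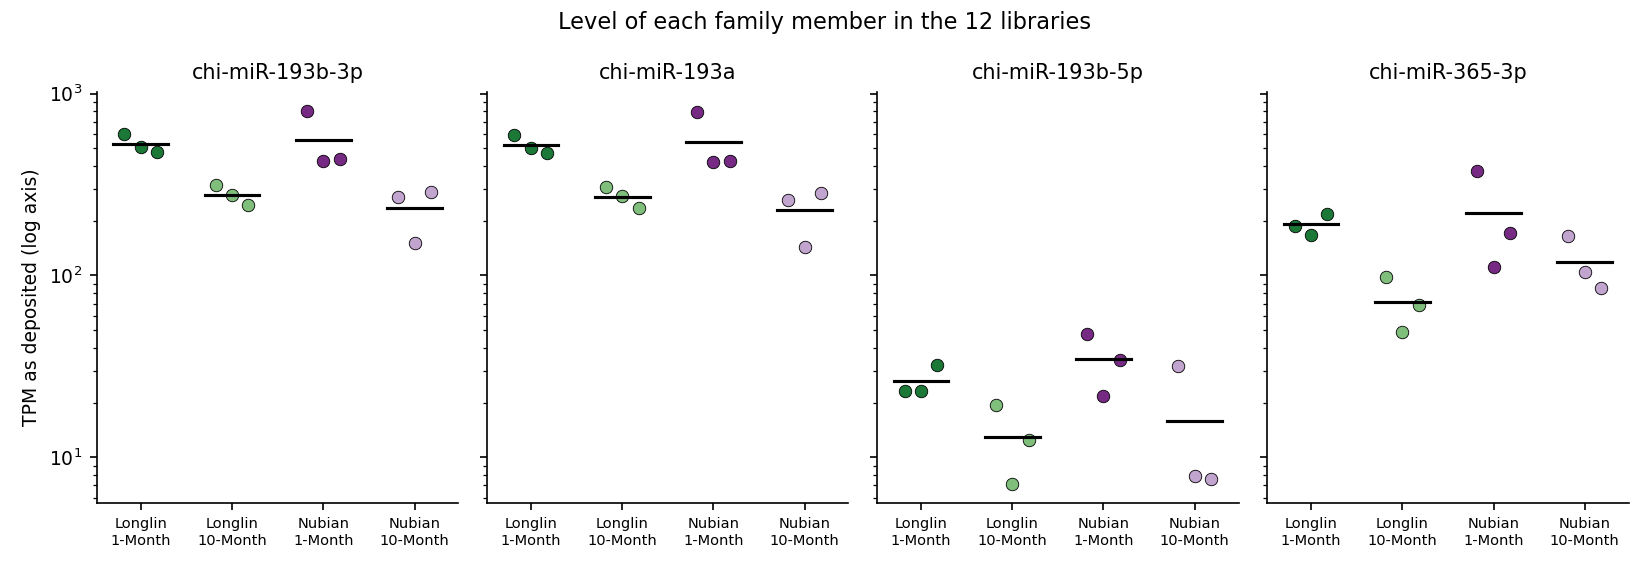
TPM of the 4 members (log axis) in the 3 libraries of each group (points) with the group mean (bars). chi-miR-193b-3p runs from 152 to 806 TPM, and its 10-Month points lie below the 1-Month points in both breeds, while the Nubian groups overlap for chi-miR-193b-5p and chi-miR-365-3p.

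How many members passed a threshold by age is given only as a description, since the age difference chose the family. The shares over all miRNAs are background, and the number of members was not tested against them. A DEM was a miRNA with an absolute log2 fold change over 1 and an adjusted p under 0.05 by edgeR's quasi-likelihood test. In Longlin goats 4 of 4 members were DEMs lower at the 10-Month label, as were 61 of 314 miRNAs tested (19.4%), and 98 of 314 (31.2%) had lower, non-overlapping groups. In Nubian goats 2 of 4 members (chi-miR-193b-3p and chi-miR-193a, the near-identical rows) were DEMs lower at the 10-Month label, as were 15 of 295 miRNAs (5.08%), and 67 of 295 (22.7%) had lower, non-overlapping groups. The Nubian call of these 2 rows was lost when any Nubian library but the second 1-Month one was left out, and with DESeq2 size factors, library totals, totals less the most abundant miRNAs or no filter on low counts, with log2 fold changes of −1.08 to −1.58 for chi-miR-193a and −1.07 to −1.53 for chi-miR-193b-3p over the alternatives. Without the second 1-Month library chi-miR-193b-5p (−1.54) and chi-miR-365-3p (−1.203) became DEMs as well.

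Scaling changed the size of the Longlin difference. With library totals in place of TMM the log2 fold change was −0.92 for chi-miR-193b-3p and −1.41 for chi-miR-365-3p, and the median over all miRNAs moved from −0.01 to 0.79. Relative to that median the difference of chi-miR-193b-3p was −1.72 with TMM and −1.71 with library totals, and that of chi-miR-365-3p was −2.23 and −2.20. The split of Longlin DEMs moved with it, from 98 higher and 61 lower with TMM to 132 higher and 25 lower with library totals. With library totals chi-miR-365-3p alone of the Longlin members remained a DEM. In Nubian goats library totals gave −1.23 for chi-miR-193b-3p and −0.90 for chi-miR-365-3p.

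Markers of several cell types differed between the same libraries, in part with overlapping ranges. The 3 leukocyte rows (miR-150 and both arms of miR-223) summed to 289 to 381 TPM at the Longlin 1-Month label and 137.6 to 186 at the 10-Month label. In Nubian goats they summed to 174 to 409 and 104 to 201 TPM, which overlap. Most of this sum was miR-150: its average log2 CPM at the 1-Month label was 8.29, against 2.27 for chi-miR-223-3p. The 4 fibroblast rows (miR-199a and miR-214) went the other way, from 380 to 632 TPM to 1615 to 2102 TPM in Longlin goats and from 253 to 523 TPM to 790 to 1440 TPM in Nubian goats. The skeletal muscle rows summed to 639660 to 664733 TPM and 393721 to 545875 TPM in Longlin goats, and to 582037 to 717229 and 623539 to 693169 TPM in Nubian goats. The part of these shifts in the members' differences was not tested, and in whole tissue fewer cells of a type cannot be told apart from less of a miRNA per cell. Of the other lists at the 1-Month and 10-Month labels, the fat rows summed to 72.2 to 94.1 and 88.1 to 104 TPM in Longlin and 20.3 to 106 and 52.2 to 121 TPM in Nubian goats. The 4 erythroid rows summed to 221 to 377 and 399 to 492 TPM in Longlin and 320 to 520 and 255 to 419 TPM in Nubian goats. The 2 endothelial rows summed to 3509 to 5753 and 4090 to 5191 TPM in Longlin and 2421 to 7315 and 2956 to 3145 TPM in Nubian goats. The 4 smooth muscle rows summed to 51465 to 96920 and 90648 to 117880 TPM in Longlin and 66998 to 130735 and 56464 to 69468 TPM in Nubian goats, so that these lists moved in no common direction between the labels.

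Whether a member differed between the breeds did not enter the choice of the family and was tested. At the 1-Month label no member was called. chi-miR-193b-3p had 483, 592 and 531 CPM in Longlin and 607, 398 and 590 CPM in Nubian goats, and chi-miR-365-3p had 151, 194 and 243 CPM in Longlin and 283, 104 and 233 CPM in Nubian goats. The groups overlapped for all 4 members, against 31 of 277 miRNAs (11.2%) whose groups did not. The log2 fold change of Nubian over Longlin was −0.01 for chi-miR-193b-3p (95% interval −0.57 to 0.56), −0.02 for chi-miR-193a (−0.58 to 0.54), 0.34 for chi-miR-193b-5p (−0.61 to 1.28) and 0.08 for chi-miR-365-3p (−0.84 to 0.99), with adjusted p of 0.982 to 0.988 by edgeR. As folds these intervals run from 0.671 to 1.47 for chi-miR-193b-3p and from 0.560 to 1.98 for chi-miR-365-3p. Over all miRNAs edgeR called 0 of 277 (0%) here, 14 had an unadjusted p under 0.05, and DESeq2 called 3.

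At the 10-Month label chi-miR-365-3p was higher in Nubian than in Longlin goats. It had 64.96, 36.6 and 59.5 CPM in Longlin and 167, 159 and 127.5 CPM in Nubian goats, with every Nubian library above every Longlin one. The log2 fold change was 1.49 (SE 0.27, 95% interval 0.89 to 2.10), which is 2.82-fold, with an adjusted p of 0.0109 by edgeR and 6.69e-06 by DESeq2. By its p it ranked 7th of 313 miRNAs tested. The call remained when any 1 of the 6 libraries was left out, with log2 fold changes of 1.13 to 1.60 and adjusted p of 0.0123 to 0.0456.

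The call depended on the scaling and the fit. With library totals the log2 fold change of chi-miR-365-3p was 0.72 (1.64-fold, adjusted p = 0.155 by edgeR), and in TPM the Nubian range of 85.3 to 164 overlapped the Longlin range of 48.7 to 97.8. In a fit of all 12 libraries it was 1.21 with an adjusted p of 0.0943 by edgeR. The median over all miRNAs was 0.07 with TMM and −0.72 with library totals at this label, and relative to it chi-miR-365-3p was higher by 1.42 and 1.44 on the log2 scale.

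The other members were not called at the 10-Month label. chi-miR-193b-3p had 208.3, 209 and 211 CPM in Longlin and 273, 231 and 430 CPM in Nubian goats, a log2 fold change of 0.57 (95% interval −0.01 to 1.15, adjusted p = 0.130 by edgeR). Its groups did not overlap on this scale, but they did in TPM, and with library totals the sign turned to −0.24. chi-miR-193a, the near-identical row, had 0.56 (−0.04 to 1.15, adjusted p = 0.147 by edgeR) and −0.25 with library totals. chi-miR-193b-5p had 12.9, 5.35 and 10.8 CPM in Longlin and 32.4, 11.99 and 11.4 CPM in Nubian goats, with overlapping groups and a log2 fold change of 0.95 (−0.15 to 2.05, adjusted p = 0.163 by edgeR).

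In all, 1 of 4 members was called between breeds at the 10-Month label, beside 79 of 313 miRNAs (25.2%). A called share of 1 in 4 is that of the background, so the count says nothing particular about the family. With TMM over these 6 libraries 3 of 4 did not overlap, the near-identical rows among them, beside 147 of 313 (47%). With TMM over all 12 libraries only chi-miR-365-3p did not overlap, and in TPM no member. Of the 79, 34 were higher and 45 lower in Nubian goats with TMM, against 2 higher and 105 lower with library totals.

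**Figure D3:**
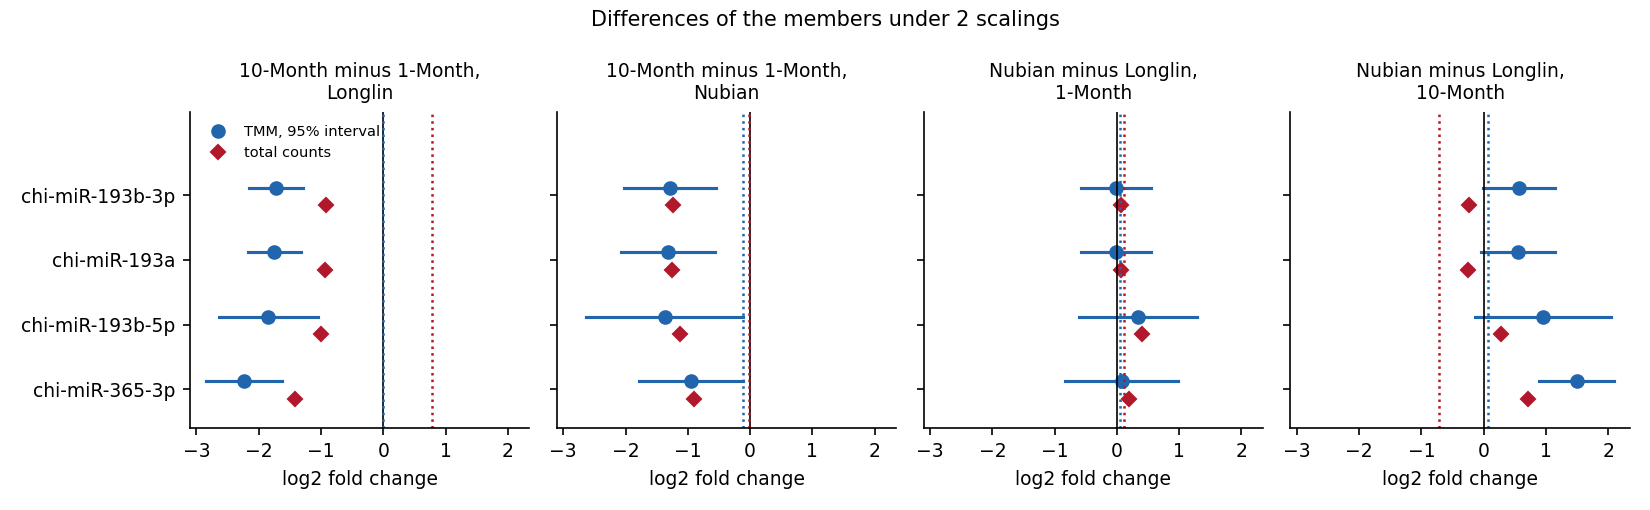
Log2 fold change of the 4 members in the age comparison of each breed and the breed comparison at each label, with TMM scaling (circles, 95% interval as lines) and with library totals (diamonds). Dotted lines mark the median over all miRNAs under each scaling; at the 10-Month label it lies at 0.07 and −0.72, and chi-miR-365-3p is the member whose interval excludes 0.

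The difference between the breeds in their age difference was fitted as an interaction over the 12 libraries. It is made of the age differences that chose the family, so for the members it is given as a description with no p. On the log2 scale it was 0.23 for chi-miR-193b-3p (95% interval −0.61 to 1.08), 0.23 for chi-miR-193a (−0.63 to 1.09) and 0.29 for chi-miR-193b-5p (−1.16 to 1.74). For chi-miR-365-3p, whose Longlin difference was the larger, it was 1.08 (0.04 to 2.11). Library totals gave 0.52 for chi-miR-365-3p and turned chi-miR-193b-3p to −0.31, chi-miR-193a to −0.32 and chi-miR-193b-5p to −0.12. The median over all miRNAs moved as well, from −0.39 with TMM to −0.84 with library totals. Relative to that median chi-miR-193b-3p was higher by 0.62 and 0.53, and chi-miR-365-3p by 1.46 and 1.36. edgeR called 0 of 331 miRNAs for the interaction (0%), members included, with 37 at an unadjusted p under 0.05, and DESeq2 called 4.

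The ratio of 2 members inside a library needs no scaling. The log2 ratio of chi-miR-193b-3p over chi-miR-365-3p was 1.67, 1.61 and 1.13 at the Longlin 1-Month label and 1.68, 2.51 and 1.83 at the Longlin 10-Month label. In Nubian goats it was 1.10, 1.93 and 1.34 at the 1-Month label and 0.71, 0.54 and 1.75 at the 10-Month label. The mean thus differed between ages by 0.54 in Longlin and by −0.46 in Nubian goats, and the groups overlapped in Nubian goats and lay edge to edge in Longlin goats. Nubian goats lay lower than Longlin goats by a mean of 1.01 at the 10-Month label (1.00 ± 0.66 against 2.01 ± 0.44, SD, n = 3 each, exact permutation p = 0.2, where 3 against 3 libraries cannot go below 0.1). Over both labels the difference was −0.51 (two-sided exact permutation test within labels, p = 0.15, adjusted p = 0.3 over 6 pairs, smallest possible p 0.005).

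The 2 arms of miR-193b kept a wide and variable ratio. chi-miR-193b-3p over chi-miR-193b-5p averaged 4.34 ± 0.41 at the Longlin 1-Month label, 4.52 ± 0.67 at the Longlin 10-Month label, 4.01 ± 0.32 at the Nubian 1-Month label and 4.19 ± 1.08 at the Nubian 10-Month label (log2, SD, n = 3 each). Its breed difference was −0.34 (exact permutation p = 0.4, adjusted p = 0.48). chi-miR-193b-5p over chi-miR-365-3p differed by −0.17 (exact permutation p = 0.5, adjusted p = 0.5). No pair of the 6 reached an adjusted p under 0.3, and the 6 pairs hold only 3 that do not repeat chi-miR-193b-3p through chi-miR-193a.

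**Figure D4:**
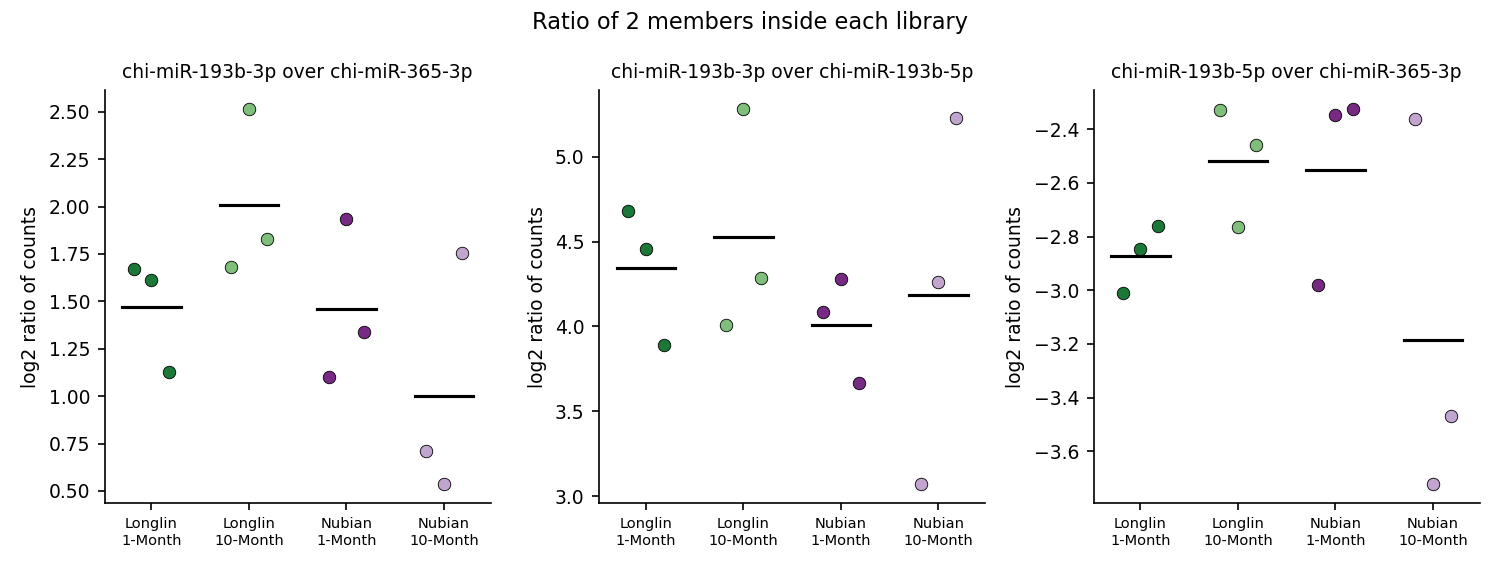
Log2 ratio of the counts of 2 members inside each library for 3 pairs, by group (points, 3 libraries each) with the mean (bars). For chi-miR-193b-3p over chi-miR-365-3p the Nubian 10-Month points are 0.71, 0.54 and 1.75 and the Longlin 10-Month points 1.68, 2.51 and 1.83.

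Members varied together over the 12 libraries to different degrees. With log2 CPM after TMM scaling, Pearson's r was 0.80 between chi-miR-193b-3p and chi-miR-365-3p, 0.78 between the arms of miR-193b and 0.88 between chi-miR-193b-5p and chi-miR-365-3p. The libraries share the age difference that chose the family, so the r of their deviations from the 4 group means was taken as well: it was 0.24, 0.05 and 0.72 for these pairs. Inside the groups chi-miR-193b-5p thus lay closer to chi-miR-365-3p than to the other arm of its own hairpin, a difference that was not tested. These are descriptions over 12 libraries that also share depth and scaling.

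Among the other 330 miRNAs, those most like chi-miR-193b-3p over the 12 libraries were chi-miR-193a (r = 0.9998), chi-miR-1388-3p (0.97), chi-miR-22-5p (0.97), chi-miR-502a (0.96), chi-miR-331-3p (0.95) and chi-miR-502b-3p (0.95). The median over the 330 was −0.12, and 10 lay above 0.9. chi-miR-365-3p ranked 34th and chi-miR-193b-5p 42nd. Several of the most alike were at low levels: chi-miR-502a had 1.39 to 8.70 CPM, chi-miR-1388-3p 2.14 to 13.8 and chi-miR-502b-3p 3.34 to 8.26. For chi-miR-331-3p the range was 8.99 to 34.5 CPM and for chi-miR-22-5p 33.8 to 747 CPM. Within groups r was 0.77 for chi-miR-1388-3p, 0.75 for chi-miR-22-5p, 0.87 for chi-miR-502a and 0.89 for chi-miR-331-3p, and with library totals 4 of the first 6 remained among the first 6, against 3 of 6 within groups.

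The miRNAs least like it were chi-miR-381 (r = −0.95), chi-miR-493-5p (−0.95), chi-miR-655 (−0.94), chi-miR-411a-5p (−0.94) and chi-miR-136-5p (−0.94). chi-miR-381 stood at 231 ± 113 CPM at the Longlin 1-Month label and 43475 ± 6952 CPM at the Longlin 10-Month label, and at 311 ± 304 and 14946 ± 7465 CPM in Nubian goats (SD, n = 3 each). Inside the groups the r of chi-miR-381 was −0.58 and that of chi-miR-655 was −0.53.

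**Figure D5:**
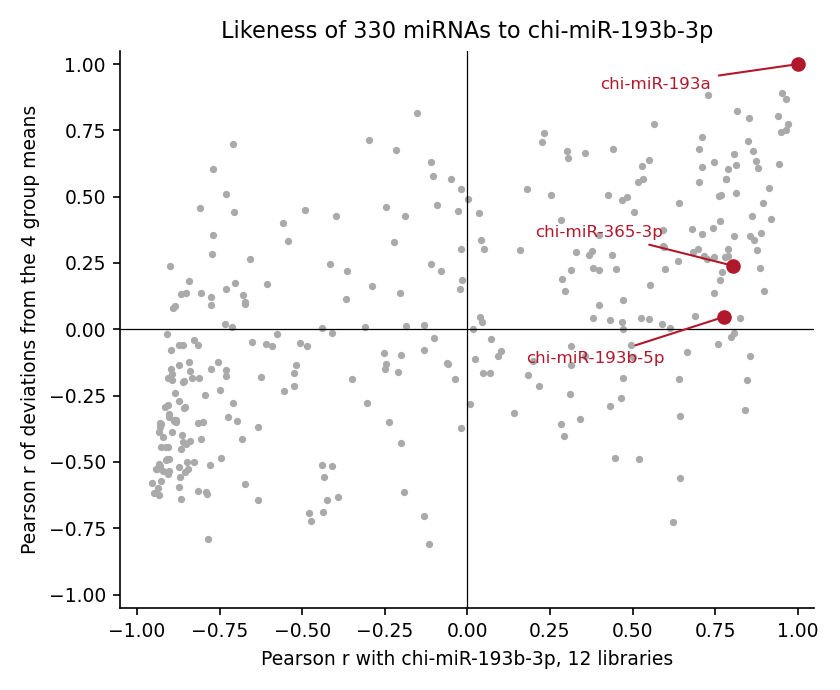
Pearson's r with chi-miR-193b-3p of 330 other miRNAs over the 12 libraries (x axis) and of their deviations from the 4 group means (y axis), both without unit; the other 3 members are marked. chi-miR-193a lies at 0.9998 on the x axis, whereas chi-miR-365-3p (0.80 and 0.24) and chi-miR-193b-5p (0.78 and 0.05) fall off inside the groups.

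Lists of miRNAs with known roles in fat and in muscle, matched by family number, were counted beside the members. Over all miRNAs 31.2% were DEMs higher and 19.4% lower at the 10-Month label in Longlin goats, and 6.78% higher and 5.08% lower in Nubian goats. Of 41 fat miRNAs tested in Longlin goats, 3 were higher and 4 lower with TMM (median log2 fold change −0.30, against −0.01 over all), but 7 were higher and 2 lower with library totals (median 0.50, against 0.79 over all). In Nubian goats 0 of 37 fat miRNAs were higher and 1 lower (median −0.21, against −0.11 over all). Of 22 muscle miRNAs tested in Longlin goats, 1 was higher and 10 lower with TMM (median −0.97), and 4 were higher and 6 lower with library totals. In Nubian goats 0 of 23 muscle miRNAs were higher and 4 lower (median −0.60). Between breeds at the 10-Month label 10.9% of all miRNAs were called higher and 14.4% lower in Nubian goats. With TMM 8 of 21 muscle miRNAs were higher and 0 lower, and 6 of 40 fat miRNAs were higher and 0 lower, but with library totals 2 muscle miRNAs were higher and 3 lower, and 0 fat miRNAs were higher and 6 lower, so the direction of these counts rests on the scaling. Relative to the median over all miRNAs, the median of the muscle list was higher by 0.82 and that of the fat list by 0.29 with library totals. At the 1-Month label no miRNA of either list was called.

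The deposited target table paired 386 miRNAs with 1563 genes in 5742 predictions, and 2 of the 4 members had entries. chi-miR-193b-3p had 16 pairs with 12 genes and chi-miR-193b-5p had 7 pairs with 6 genes, against a median of 4 genes per miRNA. chi-miR-193a and chi-miR-365-3p had none, and no gene was predicted for both arms. All transcripts matched RefSeq names.

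The 12 genes predicted for chi-miR-193b-3p were C1QL4, C3H1orf210, CCDC191, DLK1, LOC102169349, MAGEF1, MMP14, MYOG, S100A2, SLC35B4, SOD3 and TM4SF4. The roles given next are background for 4 of them, and no theme was tested. MMP14 (chromosome 10, 79446180 to 79454624), a membrane-bound enzyme that cuts extracellular matrix, was the only one of 18 studied miR-193 targets paired with a member. Only 5 of the 18 were in the table for any miRNA. The study itself names the pair of chi-miR-193b-3p and MMP14, so finding it here is no independent support. SOD3 (chromosome 6, 44812009 to 44818289) is the extracellular superoxide dismutase. MYOG (chromosome 16, 191048 to 193257) encodes myogenin, a factor that drives muscle differentiation, and DLK1 (chromosome 21, 64899151 to 64907338) is an imprinted gene that restrains fat cell formation; both were described after their entries were seen. MYOG, MMP14 and C1QL4 were each predicted for 7 miRNAs, MAGEF1 for 6, S100A2 and SOD3 for 5 and the others for 2 to 4. The median gene had 2.

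For chi-miR-193b-5p the table listed IGF2 (chromosome 29, 50430375 to 50438275), the fetal growth factor, in 2 transcripts, FOXP2, FETUB, KRT80 and 2 genes without a symbol. Of 9 studied miR-365 targets only BCL2, a blocker of cell death, was in the table, and it was not paired with a member.

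The target table is uneven, which limits what a missing pair says. Chromosomes 1 to 5 held 76.4% of its genes (1194 of 1563) but 21.7% of annotated coding genes (4474 of 20572), so most of the genome was thinly covered. The pairs are sequence predictions, and no messenger RNA values are analysed here.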

How the data were processed

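Total RNA from longissimus dorsi was made into small RNA libraries. Per the study's methods, HISAT2 placed the cleaned reads on the goat assembly ARS1.2, other small RNAs were removed with Rfam and known miRNAs were identified by miRBase; the submitters' processing notes name Bowtie 0.12.2. The authors deposited raw counts per miRNA and TPM values, means of normalized counts on a signal scale in comparison tables, and predicted target pairs by miRanda, PITA and RNAhybrid. The fold changes and p-values in the authors' comparison tables, and their GO tables, were not used.

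Counts were tested with edgeR 4.0.16 (quasi-likelihood test, TMM, R 4.3.3) for rows that reached 10 counts in 3 or more fitted libraries, with Benjamini-Hochberg adjustment over all miRNAs tested; the test was tested on simulated data. A DEM was set at 1 log2 unit in either direction with an adjusted p under 0.05, breed and interaction calls an adjusted p under 0.05. The age comparisons used the 6 libraries of a breed, the breed comparisons the 6 of an age label. DESeq2 1.42.0 and other scalings were alternatives. Ratios used 0.5 added to each count, likeness a prior count of 2 in log2 CPM. Libraries were grouped by their breed and age labels. Members and lists were chosen with earlier results of these data known. Named were all members, the 5 miRNAs beside chi-miR-193a with the highest and the 5 with the lowest r, list counts, target genes from lists of studied targets or named by the study, and, chosen after their entries were seen, the other target genes of the members. The labels do not say more of the replicates than a number, which the study gives as separate rams.

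Breed at the 10-Month label was the one comparison in which all 3 pairs of equal replicate numbers deviated together with r over 0.1 (r of deviations from the group means 0.29, 0.38 and 0.35 for numbers 1, 2 and 3). A fit with the replicate number as a block was made as an alternative for every comparison. Members had 60 to 7046 counts in a library.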

Additional observations from a re-analysis of the deposited data

How the results depend on the processing

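Over the alternatives the Longlin DEM count stayed at 116 to 172 (159 as reported). The Nubian count of 35 became 76 with DESeq2, 86 with all 12 libraries in one fit and 0 to 97 when 1 library was left out: 97 without the second 1-Month library, 4 without the first, and 0 without any of the others. Between breeds at the 1-Month label the 0 calls became 3 with DESeq2 and 0 to 8 when 1 library was left out (8 without the second Nubian library). At the 10-Month label the 79 calls became 1 with all 12 libraries in one fit and 21 to 71 when 1 library was left out, the 21 without Longlin 1, 31 without Longlin 2 and 52 without Nubian 3. The interaction's 0 calls became 4 with DESeq2, 1 with DESeq2 size factors, 1 with no filter and 1 when the 10 most abundant miRNAs were kept out of the totals, and 0 to 2 when 1 library was left out. Fits with 1 library left out hold fewer samples, and the cause of the changed counts was not tested.

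With the replicate block the counts were 160 and 44 DEMs by age in Longlin and Nubian goats, 0 and 104 between breeds at the 1-Month and 10-Month labels and 0 for the interaction; chi-miR-365-3p at the 10-Month label had 1.52 (adjusted p = 0.00318 by edgeR), and no member's call changed in that comparison. Leaving out the row chi-miR-193a was chosen after seeing the data, and gave 1.49 for it. No alternative gave a pair ratio with an adjusted p under 0.05 between breeds. The lists of fat and muscle miRNAs were also counted under other scalings, chosen after seeing the data. With library totals the prevailing direction turned for 9 called fat miRNAs by age in Longlin goats (7 as reported), and between breeds at the 10-Month label for 6 fat miRNAs (6) and 5 muscle miRNAs (8). The lowest member count in a library was 60.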

Other observations

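The entry that RefSeq names MIR193A in the goat lies between the coding genes MKL2 and PARN. In the human genome the miR-193b gene and a miR-365 gene lie between genes of the same names, and the goat entry named MIR365 lies on another chromosome. This is given as a position only: which gene the near-identical counts of chi-miR-193a and chi-miR-193b-3p came from was not tested.

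The net excess of chi-miR-193b-3p over chi-miR-193a had a mean of 6.70 ± 0.92 CPM at the Longlin 1-Month label and 5.33 ± 1.2 CPM at the Longlin 10-Month label, and of 10.4 ± 4.6 and 8.75 ± 1.51 CPM in Nubian goats (SD, n = 3 each). In CPM the ranges of the excess overlapped between the labels in both breeds, and those of chi-miR-193a did not. As a percent of the chi-miR-193b-3p count the excess did not overlap between the labels in Longlin goats.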
